A study of Mus musculus with 2 samples.

Results

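The 10 genes described here, Cst7, Lpl, Axl, Spp1, Cd9, Lyz2, Cd52, Csf1, Gpnmb and Itgax, are known as genes of disease-associated microglia. They were taken by name from the 17592 gene columns of a single-cell table, and all 10 had a column. The cells came from the dentate gyrus, the hippocampal region where granule neurons are added in adult life, of C57BL/6 mice, with no treatment or engineered allele in the labels. A library labelled young was made from 3-month-old and one labelled old from 16-month-old animals, so each age has 1 library; the number of animals behind each was not given in the sources used here. Tissue was dissociated with papain, cells that took up propidium iodide were sorted out, and 3' ends of transcripts were counted with unique molecular identifiers (UMIs), which mark single captured molecules.

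Disease-associated microglia are a state of the brain's resident macrophages, known from the surroundings of amyloid plaques, from lesions that lose myelin and from the aged brain. In that state genes of lipid handling, lysosomes and phagocytosis rise, partly under the receptor Trem2 and its adaptor Tyrobp, while genes of resting microglia such as P2ry12 and Tmem119 fall. Most of the 10 genes also have a known place outside microglia, in macrophages, lymphocytes, oligodendrocytes or cells of the vessel wall.

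The young library held 2463 cells and 16217559 UMIs, the old library 1430 cells and 7451506 UMIs. Of their cell barcodes 1401 were found in both, and of the brain cells named below 1113 barcodes. Of the microglia-like cells, 371 in the young and 365 in the old library, 365 barcodes were the same, so the rows of the old library cannot be taken as separate cells and nothing here describes age. Another 1315 young and 290 old cells lay in clusters whose median mitochondrial share was under 1%. These were not named, and in the young ones Cd9 had a level of 0.259 and none of the other 9 genes exceeded 0.0164. With 1 library per age there is no replicate and no test; intervals are exact 95% intervals that cover counting error only. A level is the summed UMIs of a gene per 10,000 summed UMIs of a class.

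In the young library 7 cell classes had at least 20 cells, each named from markers that left out the 10 genes. Microglia-like cells (371 cells, a median of 7911 UMIs per cell) had all 10 microglial markers, and their leading genes included C1qa, C1qb and Cx3cr1 beside the immediate-early genes Junb, Jun and Atf3, whose part in the levels below was not tested. The others were 300 astrocyte-like cells (median 1908 UMIs), 129 endothelial-like cells (3237), 84 pericyte-like cells (3397), 82 mature oligodendrocyte-like cells (9500.5), 58 neuroblast-like cells (8473.5) and 45 oligodendrocyte precursor-like cells (8009). Smaller clusters were 10 perivascular macrophage-like cells, 5 B cell-like cells and 64 unnamed cells. Of the pericyte-like cells, 14 formed a sub-cluster with smooth muscle genes.

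The 10 genes did not form a microglial set in this tissue. Cst7, Lyz2, Cd52 and Itgax were highest in microglia-like cells among the 7 classes, 4 of 10 genes, where 12.3% of 12226 genes with at least 20 UMIs were highest there. Lpl, Axl and Spp1 were highest in pericyte-like cells, 3 of 10 beside 11.7% of genes. Cd9 and Gpnmb were highest in oligodendrocyte precursor-like cells, 2 of 10 beside 18.7%, and Csf1 in endothelial-like cells, 1 of 10 beside 11.6%. Cst7 had 32 UMIs over the 7 classes, and Itgax, with 13, had fewer than the genes of that background. The microglial level of Itgax was not apart from that of astrocyte-like cells beyond counting error. When classes down to 5 cells were added, Lyz2 was highest in perivascular macrophage-like and Cd52 in B cell-like cells, and only Cst7 and Itgax were highest in microglia-like cells.

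The unnamed cells held further UMIs of these genes. A sub-cluster of 16 of them, led by Cd74, H2-Aa and Cd209a, which are genes of antigen-presenting cells, had 7 UMIs of Cst7 in 2 cells (an interval of 0.382 to 1.96 for the level), 22 of Lpl in 2 cells (2.99, 1.87 to 4.52) and 4 of Itgax in 1 cell (0.543, 0.148 to 1.39). Of the Lpl UMIs 20 came from 1 cell, and Cd9 was found in 14 of the 16 cells at 18.7. These levels of Cst7, Lpl and Itgax lay above those of the microglia-like class, but rest on 1 or 2 cells. The 16 cells together also had all 10 microglial markers. The summed level was 165, with cells from 0 to 560, beside 245 in the microglia-like class. Of 4 dendritic cell markers only Cd209a had UMIs. Whether the cells with Cst7, Lpl or Itgax had microglial markers was not tested.

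**Figure D1:**
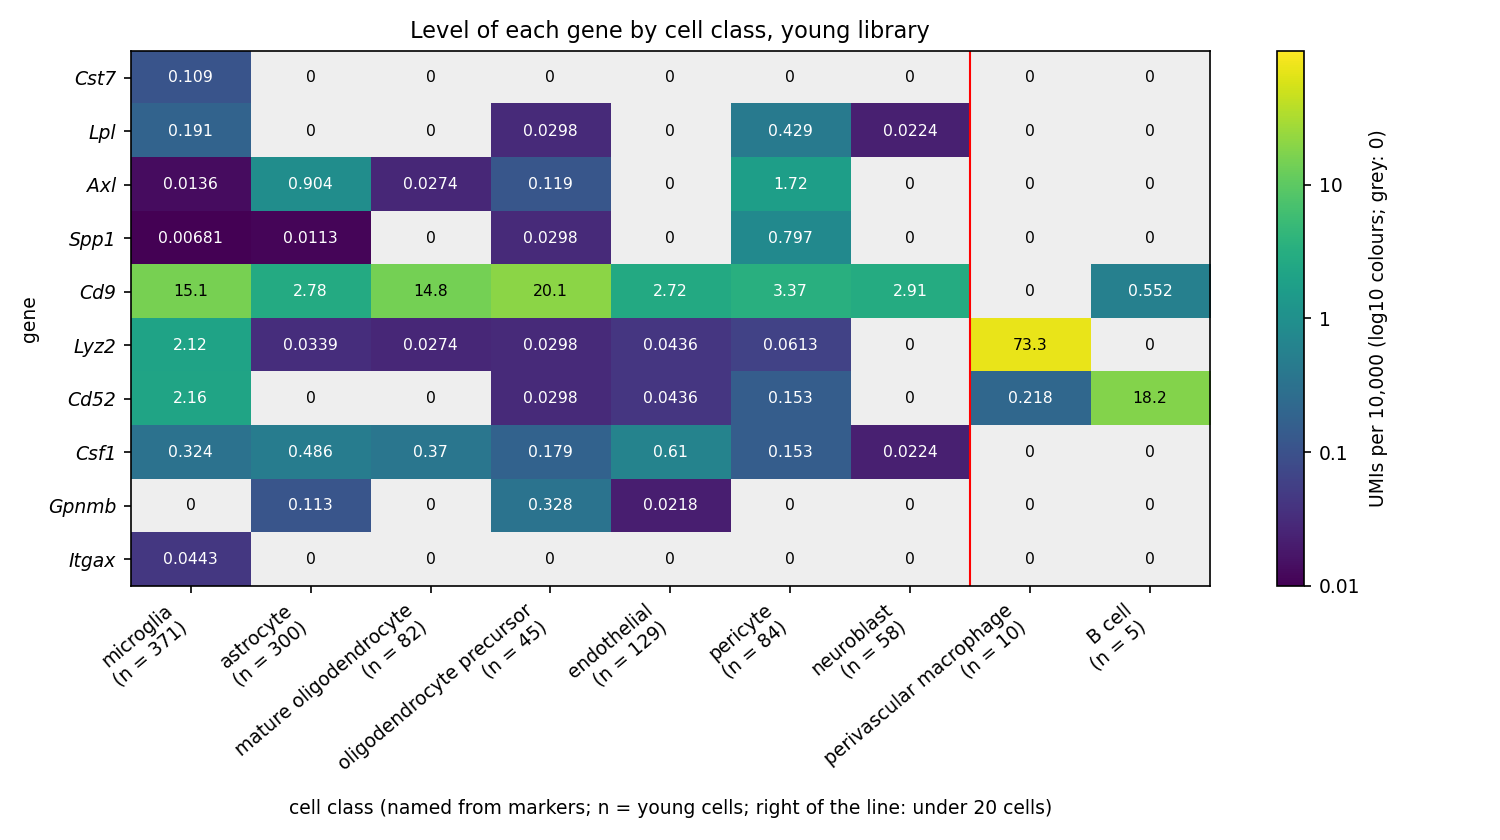
Level of each of the 10 genes (rows) in each young cell class (columns, with the number of cells), as UMIs per 10,000, written in each field and coloured on a log10 scale; grey fields had 0 UMIs. Cst7 and Itgax have UMIs only in the microglia column, while Cd9 is high in microglia, mature oligodendrocytes and oligodendrocyte precursors, and Axl and Spp1 are highest in pericytes.

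Of the secreted enzymes and inhibitors, Cst7 and Lyz2 were highest in microglia-like cells and Lpl was not. Cst7 encodes cystatin F, an inhibitor of lysosomal cysteine proteases such as cathepsin C. It had 32 UMIs in 26 of the 371 microglia-like cells, 7.01% (4.63 to 10.1), at a level of 0.109 (0.0746 to 0.154). No UMI of Cst7 was found in the other 6 classes, and the microglial level was 11.6-fold the level that 3 UMIs would give over those classes. Its partner Ctsc, the gene of cathepsin C, was also highest in microglia-like cells, at 2.64 and in 84.1% of them. Cst3, the gene of the abundant secreted inhibitor cystatin C, reached 491 in microglia-like and 186 in astrocyte-like cells.

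Lyz2 encodes lysozyme M, an enzyme of bacterial cell wall digestion that marks macrophages and granulocytes. It was found in 55.0% (49.8 to 60.1) of microglia-like cells at a level of 2.12 (1.96 to 2.29), which was 67.4-fold (36.4 to 141) that of the other 6 classes together. Those classes held 10 UMIs in all, and the share of cells with a UMI was 1.00% in astrocyte-like cells (median 1908 UMIs) and 0 in the 58 neuroblast-like cells (median 8473.5 UMIs). The 10 perivascular macrophage-like cells all had Lyz2, with 336 UMIs and a level of 73.3 (65.7 to 81.6), and no cell among them held more than 66 UMIs. In the unnamed cells, the sub-cluster led by the neutrophil genes S100a8 and S100a9 had a level of 31.1, but 113 of its 120 Lyz2 UMIs came from 1 cell. Over its 11 cells the median summed level was 0 for neutrophil markers and 120 for microglial markers. The 3' end of Lyz2 shares 36.2% of its 31-base stretches with its neighbour copy Lyz1, which has no gene column here. What these shared stretches did to the Lyz2 count was not tested.

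Lpl encodes lipoprotein lipase, which releases fatty acids from lipoproteins. Its 56 UMIs in microglia-like cells came from 26 cells, a level of 0.191 (0.144 to 0.248), and 9 of them from 1 cell. In pericyte-like cells 14 UMIs gave 0.429, a ratio of 2.25 (1.16 to 4.09) to microglia-like cells. Of these, 12 lay in 6 of the 14 cells of the smooth muscle sub-cluster, at a level of 1.30 (0.672 to 2.27), against 0.0854 in the pericyte sub-clusters. The Lpl level of the pericyte-like class was therefore mostly that of its smooth muscle cells, and where clustering set those 14 cells apart, too few for a class of at least 20, Lpl was highest in microglia-like cells among the classes left. Among partners, Lmf1, which folds the enzyme, was at 0.337 in microglia-like and 0.497 in astrocyte-like cells, while Angptl4, its inhibitor, and Vldlr, a receptor of the particles, had 0 and 2 UMIs in microglia-like cells.

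The surface proteins were divided among classes. Cd52, a small glycoprotein of lymphocytes and myeloid cells, was found in 65.0% (59.9 to 69.8) of microglia-like cells at 2.16 (1.99 to 2.33), 85.9-fold (43.3 to 200) the other 6 classes. Its 5 UMIs in pericyte-like cells were all in 1 cell. The 5 B cell-like cells had 33 Cd52 UMIs, a level of 18.2 (12.5 to 25.6). Of the unnamed cells, the sub-cluster led by Cd74, H2-Aa and Cd209a stood at 14.7. One led by haemoglobin genes stood at 8.92, and the one led by S100a8 and S100a9 at 14.3. The haemoglobin sub-cluster had a summed level of 1447 for erythroid and 24.3 for T or NK cell markers, with a median of 0 over its cells for both. Over cells, the median was also 0 for dendritic cell markers in the Cd74 sub-cluster and for neutrophil markers in the S100a8 sub-cluster. Those 3 sub-clusters also had microglial markers, at summed levels of 165, 59.0 and 105. Itgax, the integrin chain of CD11c, had 13 UMIs in 9 microglia-like cells, 2.43% (1.12 to 4.55), and 0 in the other 6 classes. The level of 0.0443 was 4.70-fold the level that 3 UMIs would give over those classes. Against astrocyte-like cells alone the interval of the ratio began at 0.919, so that difference was not beyond counting error. Its chain partner Itgb2 was found in 72.5% of microglia-like cells at 1.95.

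Cd9, a tetraspanin of cell adhesion and membrane traffic, was no microglial gene here by its class order. Its level was 20.1 (18.6 to 21.7) in oligodendrocyte precursor-like, 15.1 (14.7 to 15.6) in microglia-like and 14.8 (13.9 to 15.7) in mature oligodendrocyte-like cells. The precursor level was 1.33-fold (1.23 to 1.44) the microglial one, and the microglial and oligodendrocyte levels did not differ beyond counting error (ratio 1.02, 0.957 to 1.09). Pericyte-like, neuroblast-like, astrocyte-like and endothelial-like cells followed at 3.37, 2.91, 2.78 and 2.72, in an order that counting error does not fix. Within the pericyte-like class, the smooth muscle sub-cluster stood at 9.65 and the pericyte sub-clusters at 0.897. All 10 perivascular macrophage-like cells had 0 UMIs of Cd9; the class with the highest Lyz2 level was thus the one without a Cd9 UMI. Cd81, another tetraspanin, was at 26.8, 24.0 and 22.3 in mature oligodendrocyte-like, precursor-like and microglia-like cells, and also at 19.2 and 18.5 in pericyte-like and astrocyte-like cells, where Cd9 was at 3.37 and 2.78.

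Axl, a receptor tyrosine kinase for Gas6 bound to dying cells, was nearly absent from microglia-like cells, with 4 UMIs in 4 of 371 cells and a level of 0.0136 (0.00371 to 0.0349). Pericyte-like cells had 1.72 (1.30 to 2.23), with a UMI in 47.6% of cells, and astrocyte-like cells 0.904 (0.717 to 1.12), with a UMI in 20.7%. The pericyte level was 1.90-fold (1.32 to 2.70) the astrocyte level. Mertk, the receptor of the same family known from resting microglia, stood at 4.15 in astrocyte-like and 3.77 in microglia-like cells, where 90.6% of cells had it. Tyro3, the other receptor of that family, was highest in mature oligodendrocyte-like cells at 1.93. The ligand gene Gas6 was at 2.09 in endothelial-like and 1.51 in microglia-like cells, and the ligand gene Pros1 at 1.67 in microglia-like cells.

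Gpnmb, a glycoprotein of lysosome-rich macrophages and pigment cells, had no UMI in the 371 microglia-like cells, which allows a share of up to 0.809% of cells with a UMI, taken as 3 cells, or 0.989% by the exact interval. Its 22 UMIs in the 7 classes were in 5 oligodendrocyte precursor-like cells (11 UMIs, level 0.328, 0.164 to 0.587), 8 astrocyte-like cells (10 UMIs, 0.113) and 1 endothelial-like cell.

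Neither secreted ligand had its highest level in microglia-like cells. Spp1 encodes osteopontin, a matrix protein bound by integrins and Cd44. It had 2 UMIs in 2 microglia-like cells, a level of 0.00681 (0.000825 to 0.0246). Pericyte-like cells held 26 of the 30 UMIs of the 7 classes, at a level of 0.797, from 7 cells that were all in the pericyte sub-clusters, with at most 8 UMIs in a cell. Of its receptors, Itgb5 was at 9.96 in microglia-like cells, Itgb1 at 4.72 in pericyte-like cells and Cd44 at or below 0.0791 in each of the 7 classes.

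Csf1 encodes a growth factor that microglia need to survive. Its level ran from 0.610 (0.406 to 0.882) in endothelial-like cells through 0.486 in astrocyte-like, 0.370 in mature oligodendrocyte-like and 0.324 (0.262 to 0.396) in microglia-like cells to 0.179, 0.153 and 0.0224 in precursor-like, pericyte-like and neuroblast-like cells. No class differed from the next in this order beyond counting error. In endothelial-like cells 7 of the 28 UMIs were in 1 cell, and by the mean over cells the highest class was astrocyte-like. The receptor gene Csf1r was found in all 371 microglia-like cells, at 23.5, with the next class at 1.13. Il34, the other ligand gene of that receptor, was at 3.22 in pericyte-like cells and had no UMI in microglia-like ones.

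At least 50% of microglia-like cells had a UMI of Cd9 (97.8%), Cd52 (65.0%) and Lyz2 (55.0%), 3 of 10 genes, where 11.7% of 12226 genes reached that share. When each cell was thinned to 2000 UMIs, which left out 18 cells, the shares were 90.9% for Cd9, 29.2% for Cd52 and 32.3% for Lyz2. The thinned shares of Lpl, Cst7, Csf1 and Itgax were 3.40%, 3.12%, 2.83% and 1.13%. With all UMIs, Cst7 was found in 26 cells, Lpl in 26, Csf1 in 33, Itgax in 9, Axl in 4 and Spp1 in 2, and after thinning in 11, 12, 10, 4, 1 and 0 cells.

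A microglia-like cell most often held 2 or 3 of the 10 genes. Exactly 2 genes had a UMI in 132 cells and 3 genes in 128 cells, while 6 cells had none and 11 cells had 5 or more. Depth moved with this count: cells with 1 gene had a median of 6028 UMIs and cells with 5 genes 9934. After thinning, 1 gene was the most frequent count (158 of 353 cells) and 2 cells had 5. The rare genes overlapped in part: 8 cells had both Cst7 and Csf1, 30.8% of the 26 Cst7 cells and 24.2% of the 33 Csf1 cells. Lpl was found in 4 of the 9 Itgax cells (44.4%), which are 15.4% of the Lpl cells, and Csf1 in 5 of the 9 (55.6%), which are 15.2% of the Csf1 cells. Lpl and Csf1 shared 6 cells, and Cst7 shared 3 with Lpl and 3 with Itgax. Over the whole class 7.01% of cells had Cst7, 7.01% Lpl, 8.89% Csf1 and 2.43% Itgax. In the 9 cells of sub-cluster 7, described below, lay 5 of the 8 cells with Cst7 and Csf1. The same held for 2 of the 4 with Lpl and Itgax and 2 of the 5 with Csf1 and Itgax. Cells with Cst7 had a median of 9750.5 UMIs and cells without it 7894, and its part in these overlaps was not tested.

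**Figure D2:**
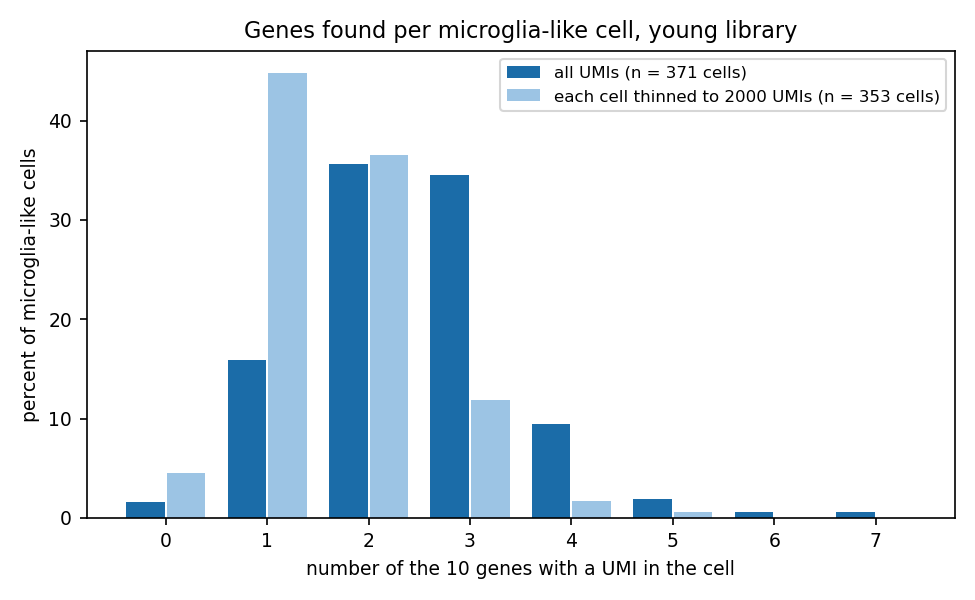
Percent of young microglia-like cells (vertical axis) by how many of the 10 genes had a UMI in the cell (horizontal axis), with all UMIs (dark bars, 371 cells) and after each cell was thinned to 2000 UMIs (light bars, 353 cells). The most frequent count is 2 with all UMIs and 1 after thinning.

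The less frequent genes were not spread evenly over microglia-like cells. Clustering the 371 cells again, on variable genes that left out the 10 genes and a list of other disease-associated microglia genes, gave 8 sub-clusters. The smallest, sub-cluster 7, had 9 cells, 2.43% (1.12 to 4.55) of the class, with a median of 7538 UMIs and no cell called a doublet. Its 5 leading genes were Ccl4 (level 119, against 9.94 in the other 362 microglia-like cells), Ccl3 (53.5 against 6.78), Id2 (16.9 against 1.52), Cdkn1a (15.2 against 2.06) and Csf1, which the clustering did not use. Ccl3 and Ccl4 encode chemokines, Id2 an inhibitor of transcription factors, and Cdkn1a the cell cycle inhibitor p21. All values that compare this sub-cluster with other cells are descriptions, since these cells were grouped by their own expression.

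Cd9 was present in all 9 cells of sub-cluster 7, with 66, 47, 20, 24, 60, 20, 12, 37 and 12 UMIs. The level was 41.3 (36.8 to 46.3) against 14.5 in the other microglia-like cells, a ratio of 2.86 (2.53 to 3.21). The UMIs of Csf1 in the same cells, in the same order, were 6, 3, 9, 0, 12, 0, 2, 1 and 3. These 36 UMIs are 36 of the 95 in the whole class, and the level was 4.99 (3.50 to 6.91) against 0.206, a ratio of 24.2 (15.5 to 37.3).

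Lpl was high in some of these cells and missing from most: the UMIs were 0, 0, 8, 0, 0, 1, 9, 0 and 8. The 26 UMIs gave a level of 3.60 (2.35 to 5.28) against 0.105, a ratio of 34.4 (19.5 to 60.2). Cst7 was found in 6 of the 9 cells with 1 or 2 UMIs each, a level of 0.970 against 0.0873 and a ratio of 11.1 (4.06 to 26.4). Itgax rested on 2 UMIs in 1 cell and 1 UMI in another, at 0.416 (0.0858 to 1.22) against 0.0349. Neither of these cells had a UMI of Cst7. The cell with 2 Itgax UMIs also held 8 UMIs of Lpl, 9 of Csf1 and the only Axl UMI of the sub-cluster, and had 7 of the 10 genes.

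Lyz2 and Cd52, found in most microglia-like cells, were not raised in the same cells. Lyz2 had a level of 2.22 against 2.12 (ratio 1.05, 0.595 to 1.72) and Cd52 1.66 against 2.17 (ratio 0.766, 0.394 to 1.35). Spp1 and Gpnmb had 0 UMIs there. Of the 7 genes with at least 10 UMIs in microglia-like cells, 5 were at least 2-fold higher in sub-cluster 7 and none was at least 2-fold lower. Over all 9790 genes with that many UMIs, 16.4% were at least 2-fold higher and 8.44% lower. For these shares, the 2632 genes without a UMI in the 9 cells were placed at the ratio that 3 UMIs would give, and 2542 of them, for which that ratio was 1 or more, at no change. With all 2632 at a ratio of 0 the lower share was 35.3%. None of the 7 members compared, nor any gene of the lists below that was compared, was without a UMI there.

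**Figure D3:**
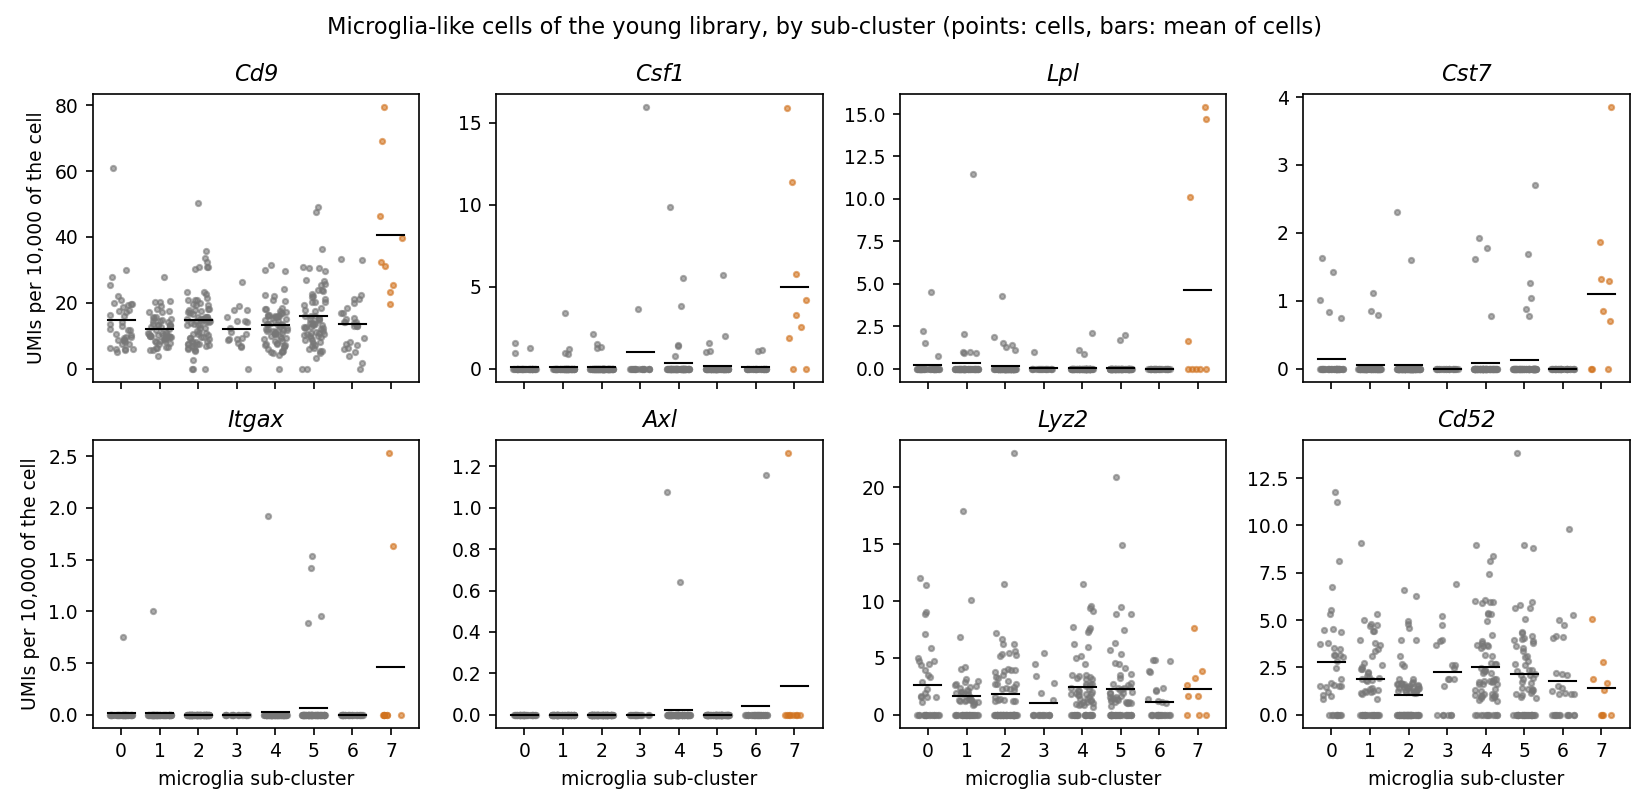
UMIs per 10,000 of the cell (vertical axes, linear, scaled per panel) for 8 of the genes in young microglia-like cells, by sub-cluster (horizontal axis); each point is a cell and each bar the mean over cells. The 9 cells of sub-cluster 7 (orange) reach the highest values for Cd9, Lpl, Cst7 and Itgax, and lie within the range of the other cells for Lyz2 and Cd52.

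Other genes of the disease-associated state were described from a list of 24, of which 23 were measured; Clec7a was not analysed here. In the class order, 11 of 23 were highest in microglia-like cells, beside 12.3% of 12226 genes with at least 20 UMIs. Lilrb4a, Ch25h and Igf1, with 5, 12 and 3 UMIs over the 7 classes, had fewer than that and were highest in other classes. The highest levels of the list in that class were those of Ctsd (80.0, a lysosomal protease), Fth1 (36.4, an iron store) and Trem2 (23.4, the lipid receptor), and the lowest those of Ch25h (0), Igf1 (0.00341) and Lilrb4a (0.0136). In sub-cluster 7, 20 of the list had enough UMIs. Of these, 11 were at least 2-fold higher, beside 16.4% of all genes, and none was 2-fold lower. Lgals3, among the 11, reached 10 UMIs only through its UMIs in sub-cluster 7. The median log2 ratio of the list was 1.14, beside 0.00 over all genes or -0.24 with the genes without a UMI at 0.

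Named after their values were seen, Cd63, a tetraspanin of lysosomes, had a level of 15.9 (13.2 to 19.1) against 3.43 in the other microglia-like cells, and Ctsb, a lysosomal protease, 28.7 against 11.2. Lgals3, the gene of galectin-3, had 15 UMIs in 4 of the 9 cells and 2 UMIs in the other 362 cells. Trem2 itself was at 17.5 against 23.6 (ratio 0.741, 0.616 to 0.884) and Tyrobp at 23.1 against 21.8.

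Genes of resting microglia were lower in the same 9 cells. All 12 of that list were highest in microglia-like cells among the classes, beside 12.3% of 12226 genes. The list holds the 10 microglial markers that named the class. None of the 12 was higher in sub-cluster 7 than in the other microglia-like cells, beside 4207 of all 9790 genes. At least 2-fold lower were 5 of 12: P2ry12, P2ry13, Tmem119, Selplg and Sall1. Of all 9790 genes 8.44% were that much lower, or 35.3% with the genes without a UMI there at 0. P2ry12, a receptor for ADP, had a level of 6.79 (5.02 to 8.98) against 23.4, and Tmem119 6.93 (5.14 to 9.14) against 16.5, while Cx3cr1, the fractalkine receptor, stood at 22.2 against 28.8. The median log2 ratio of the list was -0.61, beside 0.00 over all genes or -0.24 with the genes without a UMI at 0. Of the members' partners, 15 had enough UMIs, with a median of -0.15. Of these, 1 was 2-fold higher (Ptgfrn, on 1 UMI), beside 16.4% of all genes. Another 1 was 2-fold lower (Igsf8, on 1 UMI), beside the 8.44% or 35.3% given above. Csf1r was at 15.5 against 23.7.

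**Figure D4:**
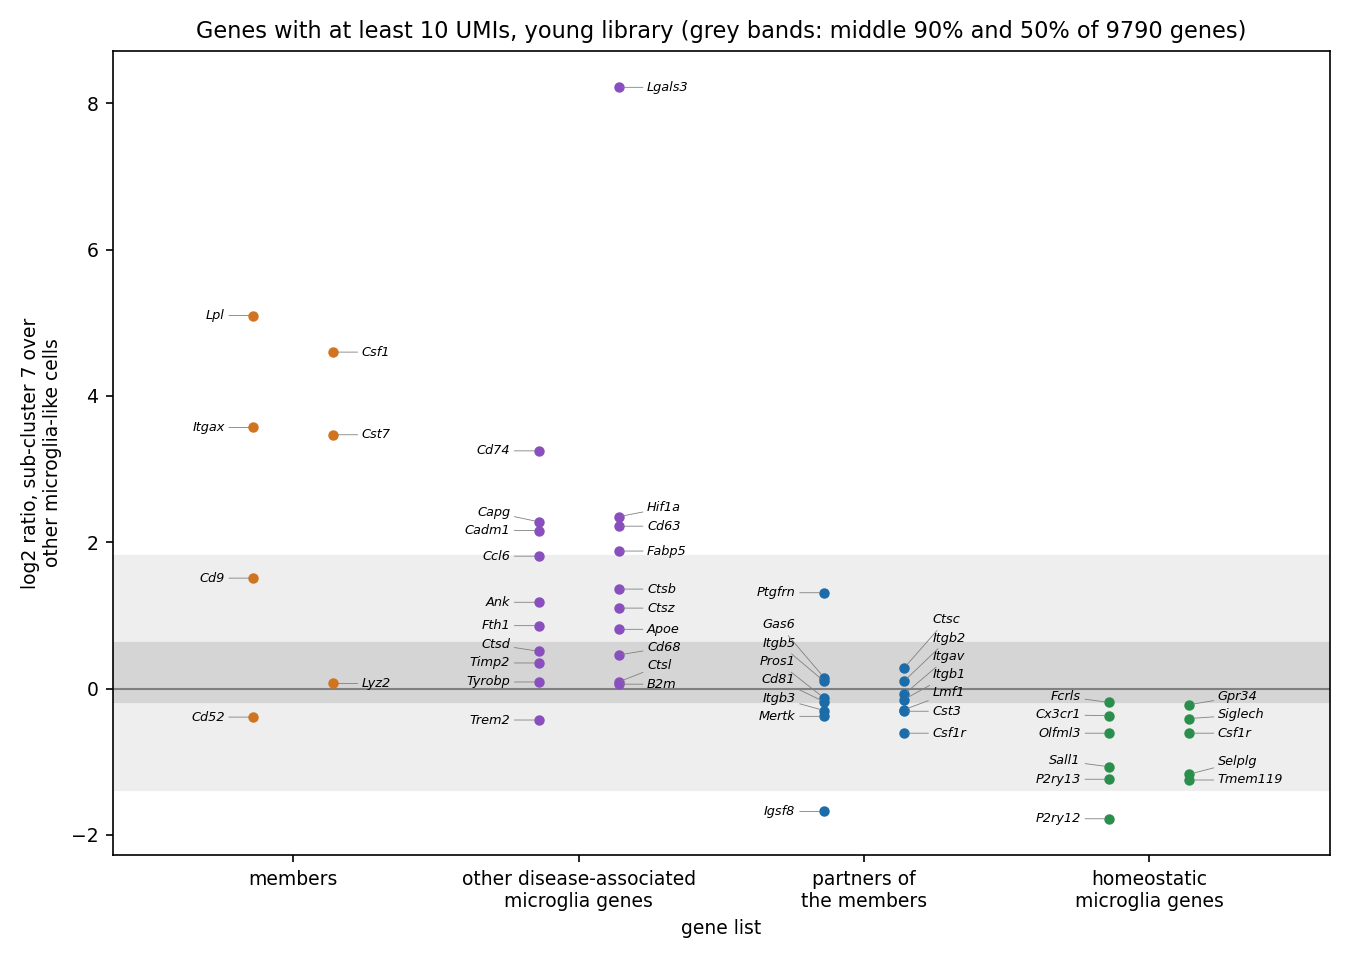
Log2 ratio of the level in sub-cluster 7 over the other young microglia-like cells (vertical axis) for genes with at least 10 UMIs, by list (horizontal axis); the grey bands hold the middle 90% and 50% of 9790 genes, with those without a UMI in the sub-cluster at the ratio of 3 UMIs and at most at 0. Lpl, Csf1, Itgax, Cst7 and Cd9 lie above 1, 11 of 20 other disease-associated genes do as well, and the genes of resting microglia drawn all lie below 0. Lgals3, among the 11, reached 10 UMIs only through sub-cluster 7.

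Markers of other immune cells were measured in sub-cluster 7. None of the 8 perivascular macrophage, 4 monocyte or 7 T or NK cell markers measured had a UMI there. Of 4 dendritic cell markers 1 had a single UMI (Zbtb46; summed level 0.139 against 0.0170 in the class), while Cd209a, Xcr1 and Ccr7 were at 0. Of 6 B cell markers 1, Ighm, had UMIs, 15 in all, at 2.08 against 2.66 in the class. The part of these markers in the result was not tested. Of 5 neutrophil markers S100a8, S100a9, Retnlg and Ngp were at 0, and the summed level was 1.94 against 1.82 in the whole class. All 10 microglial markers were present, at a summed level of 189 against 245 in the class, with cells of the sub-cluster from 125 to 348. Its median mitochondrial share was 2.74%, within the range of 2.52% to 7.91% of the other sub-clusters.

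The grouping of these cells held at other clustering resolutions (0.5, 1.5 and 2), each of which returned the same 9 cells. With 1000 variable genes the 9 cells lay in a sub-cluster of 13. With 20 principal components only 4 of the 9 fell together, in a sub-cluster of 26, where Cd9 was at 20.5, Csf1 at 1.21, Lpl at 0.455 and Cst7 at 0.152, so the size of these differences depends on that choice. In the old library the same 9 barcodes had Cd9 at 40.5 against 14.2, Csf1 at 4.73 against 0.201, Lpl at 3.11 against 0.0893 and Cst7 at 0.746 against 0.102. They formed a sub-cluster of their own at resolutions 1, 1.5 and 2 and lay in one of 183 cells at 0.5. Because the barcodes are shared by the libraries, these old values are not those of separate cells and add no support. Left out of the young class, the 9 cells took the microglial level of Lpl from 0.191 to 0.105 and that of Csf1 from 0.324 to 0.206.

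Sequence before the start site is shown for 3 of the members with higher levels in sub-cluster 7. RefSeq start sites on GRCm38.p6 were matched for 8 of the 10 genes, all but Lpl and Cd52. The 250 bases before the start of Cst7, Csf1 and Itgax are printed 5′ to 3′ on the gene's strand, in lower case with a motif match in capitals.
Cst7, chr2:150570165-150570414, plus strand: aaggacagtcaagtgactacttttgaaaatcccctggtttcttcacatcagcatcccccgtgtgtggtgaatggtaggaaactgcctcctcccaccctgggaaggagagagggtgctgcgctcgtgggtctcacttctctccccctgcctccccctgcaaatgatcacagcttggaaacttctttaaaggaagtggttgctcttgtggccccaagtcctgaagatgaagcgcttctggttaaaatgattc
Csf1, chr3:107760470-107760719, minus strand: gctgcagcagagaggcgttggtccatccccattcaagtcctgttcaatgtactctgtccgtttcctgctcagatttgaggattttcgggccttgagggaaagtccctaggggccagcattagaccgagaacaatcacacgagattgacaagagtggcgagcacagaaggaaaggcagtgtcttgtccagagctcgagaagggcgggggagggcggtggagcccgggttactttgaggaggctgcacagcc
Itgax, chr7:128129300-128129549, plus strand: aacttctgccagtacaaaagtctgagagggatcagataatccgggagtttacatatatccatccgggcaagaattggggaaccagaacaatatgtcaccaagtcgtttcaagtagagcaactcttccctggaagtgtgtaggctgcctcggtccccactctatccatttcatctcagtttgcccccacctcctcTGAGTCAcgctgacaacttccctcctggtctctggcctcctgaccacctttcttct

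The motifs searched, on both strands, were GAGGAA (the core of sites of the myeloid factor PU.1), TGANTCA (AP-1, the factor of Fos and Jun), TTGCNNAA (C/EBP) and TCACGTG (an E-box of the MiT/TFE factors of lysosomal genes). The Itgax window held an AP-1 match 56 bases before the start, and 6.75% of 32851 such windows hold one. The Cst7, Csf1, Cd9, Lyz2 and Gpnmb windows held none of the 4 motifs. GAGGAA was found upstream of Axl and Spp1, and in 23.3% of windows, and TTGCNNAA upstream of another Spp1 start, and in 9.56%. TCACGTG was in 3.13% of windows and in none of the members' windows. A match is a run of letters and no measured binding.

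The class patterns of the more abundant members were set beside those of all genes with at least 50 UMIs, by Pearson's r of log2(level + 0.1) over the 7 classes, whose points share 1 library and differ in depth. Nearest to Cd52 were P2ry6 (r = 0.998) and Tmem173 (0.997), to Lyz2 Nfkbid (0.997) and Nckap1l (0.996), to Lpl Trpv2 (0.995) and Plxdc1 (0.988), to Axl Eif4g3 and Dzip1l (both 0.979), to Cd9 Csmd3 (0.969) and Arl8b (0.946), and to Csf1 Zfp758 (0.961) and Dnm2 (0.949). With 7 points these values are descriptions only.

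The old library gave nearly the same levels in its 365 microglia-like cells. Cd9 was at 14.9 and 15.1 in old and young (ratio 0.984, 0.945 to 1.03), Lyz2 at 2.06 and 2.12, Cd52 at 2.17 and 2.16, and Csf1 at 0.314 and 0.324. Of the 8 genes with at least 10 UMIs over both libraries 1, Axl, was at least 2-fold apart, beside 2.17% of 11039 genes. It rested on 9 UMIs in the old and 4 in the young library, with a ratio of 2.05 (0.573 to 9.13). In the 365 shared barcodes a gene of the 10 was found in both libraries or in neither in 98.25% of cases, and the old cells had a median of 1.117 times the UMIs. Spp1 had 2 and 3 UMIs and Gpnmb 0 and 1.

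**Figure D5:**
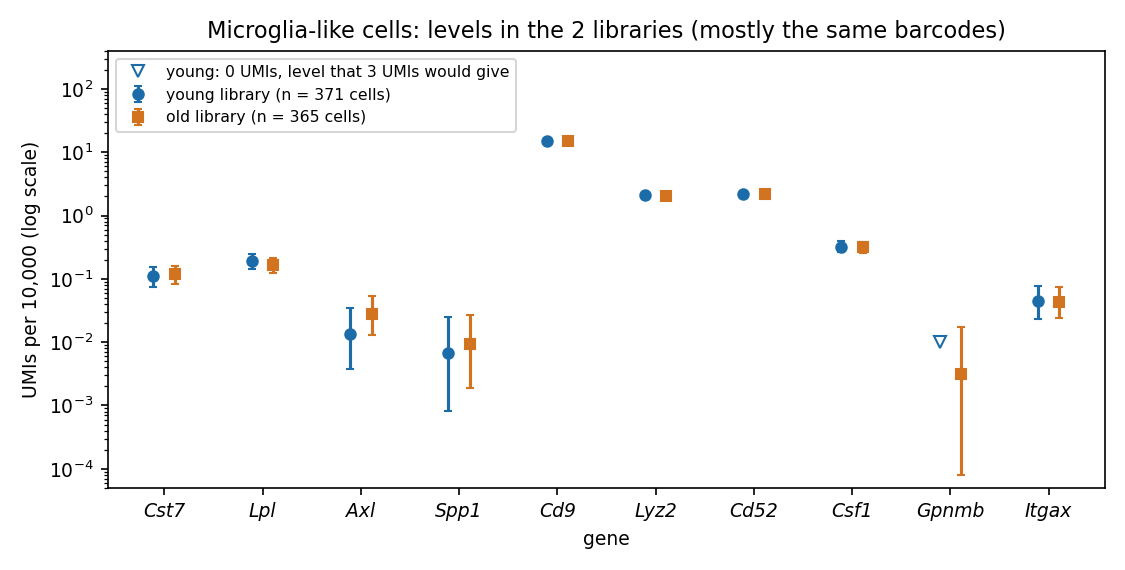
Level of each of the 10 genes in microglia-like cells (vertical axis, log scale, UMIs per 10,000) in the young (circles, 371 cells) and old (squares, 365 cells) libraries, with exact 95% Poisson intervals; the open triangle is the level that 3 UMIs would give where a gene had 0. The intervals of the 2 libraries overlap for all genes with UMIs in both, which hold mostly the same barcodes.

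All 10 genes are protein-coding in the GENCODE M21 annotation of GRCm38, the assembly also called mm10. On the plus strand lie Cst7 at chr2:150570415-150578944, Lpl at chr8:68880491-68907448, Spp1 at chr5:104435118-104441050, Gpnmb at chr6:49036546-49070929, Itgax at chr7:128129547-128150657. On the minus strand lie Axl at chr7:25757273-25788705, Cd9 at chr6:125460266-125494791, Lyz2 at chr10:117277331-117282321, Cd52 at chr4:134082448-134095082, Csf1 at chr3:107741048-107760469. Of the 31-base stretches in the last 500 bases of their transcripts, 6.13% of those of Spp1, 2.72% of Cd9 and 1.66% of Lpl also occur in another gene, and none of those of Cst7, Axl, Cd52, Csf1, Gpnmb and Itgax.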

How the data were processed

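Dentate gyrus cells were read in 2 libraries, 1 per age. The deposited values are on a natural log scale, ln(1 + UMIs per 10,000 UMIs of that cell), a unit read from the values. Reads were processed with Cell Ranger 5.0.0 on mm10, per the submitters' processing notes. Animals per library, annotation and cell filter were not given in the sources used here. Undoing the log gave whole UMIs for 100% of values (tolerance 0.01), and sums of these were used.

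All 3893 cells were clustered with scanpy 1.11.5 in Python 3.11.15 and Leiden (igraph 0.11.9): 2000 variable genes without the 10 members and the other disease-associated genes, 30 components, 15 neighbours, resolution 1. A class name needed 3 of its markers, each in 25% of cells and 4-fold above the rest. numpy 2.4.6, scipy 1.17.1, pandas 2.3.3, matplotlib 3.10.9 and scikit-image 0.26.0 were also used. Scrublet called 37 young and 23 old doublets, which were kept. Poisson and Clopper-Pearson 95% intervals take UMIs as independent. UMIs count 3' ends, so levels were not divided by length and are compared between cells, not genes.

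The members and lists were chosen with earlier results of these data known. Genes named are the members, their partners, the 3 highest and 3 lowest of a list in microglia-like cells, the 2 nearest in pattern and 5 leading genes per sub-cluster. The mitochondrial limit, the sub-clusters of the unnamed and pericyte-like clusters and the settings of the sub-clusters were chosen after seeing the data. One gene of the lists is not reported here by name. Alternatives were doublet removal, shared barcodes, thinning, resolution, class size and averaging.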

Additional observations from a re-analysis of the deposited data

How the results depend on the processing

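The number of genes highest in microglia-like cells was 4 with shared barcodes, doublets removed, resolution 0.5, means over cells or the old library, 5 with the 10 genes and the other disease-associated genes used in clustering or at resolution 2, where 14 smooth muscle-like cells, too few for a class, left the pericyte-like class and Lpl was added, and 2 with classes of at least 5 cells. The number found in 50% of microglia-like cells was 1 after thinning to 2000 UMIs, and 3 under the 4 other alternatives. The number at least 2-fold apart between libraries was 0 with a pseudocount of 0.1, and 1 under the 3 others. The values of 2, 1 and 0 follow from the added classes, the removed UMIs and the added constant. Of 60 microglial levels under alternatives, 4 left their counting interval: Lpl (0.105), Csf1 (0.206) and Cd9 (14.5) without sub-cluster 7, an alternative chosen after seeing the data, and Cd52 (1.97) by means over cells. Leaving out 14 cells with a UMI of 2 or more macrophage, monocyte or neutrophil markers, none of them in sub-cluster 7, moved no level out of its interval. Of 50 levels of sub-cluster 7 under settings also chosen after seeing the data, 5 left their interval, all with 20 principal components (the 4 given above and Cd52, at 3.24); the cause was not tested. The share of all genes at least 2-fold lower in sub-cluster 7 was 35.3% with genes without a UMI there at 0, also chosen after seeing the data. No paired analysis was possible because each age has 1 library. The values of Axl, Spp1, Gpnmb and Itgax rest on only 0 to 13 UMIs in microglia-like cells, and the part of depth in this was not tested.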
